A study of Mus musculus with 4 samples.

Results

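The common gamma-chain receptor family was examined in RNA-Seq libraries of CD4+ T cells that had infiltrated lung tumors of mice. The 10 genes were taken by name from the 25239 gene symbols listed for each library: the receptor chains *Il2ra*, *Il2rb*, *Il2rg*, *Il7r*, *Il4ra*, *Il21r* and *Il15ra*, the kinase *Jak3*, and the transcription factors *Stat5a* and *Stat5b*. All 10 were found, and all 10 passed the filter on low counts that 13919 genes passed. The study compared 2 biological replicates from wild-type C57BL/6 mice (WT) with 2 from CD4CreERT2+/-/Acvr1bfl/fl mice (CD4/ALK4-KO), to ask how loss of the activin receptor ALK4 on CD4+ T cells alters their transcriptome. In CD4/ALK4-KO mice a tamoxifen-inducible Cre is driven by the *Cd4* promoter and deletes *Acvr1b*, the gene of ALK4. The methods give 5 doses of 75 mg/kg tamoxifen for these mice, and whether WT mice received it is not given in the sources used here. Mice were males of 8 to 10 weeks, all of which were inoculated with 500000 cells of LLC-OVA, Lewis lung carcinoma that expresses ovalbumin, and the labels place the isolation at days 18 to 22, whereas the methods give an earlier range that overlaps with it. CD4+ T cells were purified with a kit from the leukocyte layer of a Percoll gradient.

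Cytokines of the common gamma-chain family, IL-2, IL-4, IL-7, IL-9, IL-15 and IL-21, signal through receptors that share the chain encoded by *Il2rg* and pair it with a private chain. IL-2 and IL-15 also share the beta chain encoded by *Il2rb*, and each has an alpha chain of its own that raises the affinity of the receptor. The gamma chain carries the kinase JAK3 and its partner chains carry JAK1, and together they phosphorylate STAT5 (chiefly after IL-2, IL-7 and IL-15), STAT6 (after IL-4) or STAT3 (after IL-21). In T cells IL-7 maintains naive and memory cells, whereas IL-2 sustains activated and regulatory T cells, on which the alpha chain CD25 is abundant.

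The deposited counts summed to between 11823908 and 13943237 per library. Levels are given as CPM, counts scaled to a common library size with the TMM method of edgeR, and each genotype is summarised by mean ± SD (n = 2). Differences are log2 fold changes of CD4/ALK4-KO over WT, tested over the 13919 genes with edgeR's quasi-likelihood test, and a gene is called higher or lower at an adjusted p under 0.05. With 2 libraries per genotype these p-values speak only for the libraries at hand. The fit estimates the spread of each gene with information shared over all genes tested, so they do not rest on that gene's own replicates alone. The targeted gene *Acvr1b* had 426 and 342 counts in WT and 322 and 445 in CD4/ALK4-KO, a log2 difference of 0.16 (SE 0.24) that was not called (adjusted p = 0.66, edgeR). On the scale of T cell receptor genes described below *Acvr1b* was called lower, at -2.22 (adjusted p = 1.7e-13, edgeR). On that scale 93.6% of all genes tested were called lower and their median was -2.4, so this call does not set *Acvr1b* apart. The counts cover the whole gene and not the deleted stretch alone, so they are no direct check of the deletion, and group names below are those of the labels.

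Levels of markers of T cells and of some other cell types also differed between the genotypes. All 16 T cell markers were called higher in CD4/ALK4-KO (median 2.42 on the log2 scale), with summed levels of 565 and 525 CPM in WT against 3019 and 2861 in CD4/ALK4-KO, and *Cd4* itself rose from 51.7 ± 5.24 to 317 ± 13.9 CPM (2.62, adjusted p = 2.8e-08, edgeR). Of 10 macrophage and monocyte markers 1 was called higher, with sums of 6592 and 7504 CPM against 6529 and 6280, and all 7 B cell and all 4 NK cell markers were called higher. The cytotoxic T cell markers *Cd8a* and *Cd8b1* were both called higher as well, with sums of 47.8 and 43.6 CPM in WT and 310 and 192 CPM in CD4/ALK4-KO. No listed marker of T, B, NK or myeloid cells was at 0 in any library, so the label CD4+ T cell describes the purified fraction and not every RNA molecule in it. In bulk libraries, more cells of a type and more RNA per cell cannot be told apart. Fold changes are therefore also given on a T cell receptor scale, on which the libraries were scaled to the geometric mean of 7 genes of the T cell receptor complex and its proximal signalling (*Cd3d*, *Cd3e*, *Cd3g*, *Cd247*, *Lck*, *Zap70* and *Lat*), all of which are among the 16 markers. Taken over all genes, this scale moved log2 fold changes by a median of -2.39. The part of these marker differences in the results on receptors and STAT5 was not tested.

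Of the 10 genes, 8 were called higher in CD4/ALK4-KO, 0 were called lower and 2, *Il4ra* and *Il15ra*, were not called. Among all genes tested, 17.4% were called higher and 15.4% lower. The median log2 fold change of the 10 genes was 1.61, against -0.0082 over all genes tested. Both CD4/ALK4-KO libraries lay above both WT libraries for 9 of the 10, a pattern shown by 32.7% of all genes tested. Over the alternative fits other than the T cell receptor scale, the adjusted p of the 8 called genes reached at most 0.036 (*Jak3*), and it ran from 0.063 to 0.89 for *Il4ra* and from 0.31 to 0.97 for *Il15ra*. The summed level of the 10 genes was 614 and 554 CPM in WT and 1632 and 1540 CPM in CD4/ALK4-KO. On the T cell receptor scale 0 of the 10 were called higher and 6 were called lower, with a median of -0.79, where 0.18% of all genes were called higher and 93.6% lower and the median of all genes was -2.40. The sign of 7 of the 8 called genes turned when T cell receptor genes were the reference, with *Il2ra* as the exception.

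**Figure D1:**
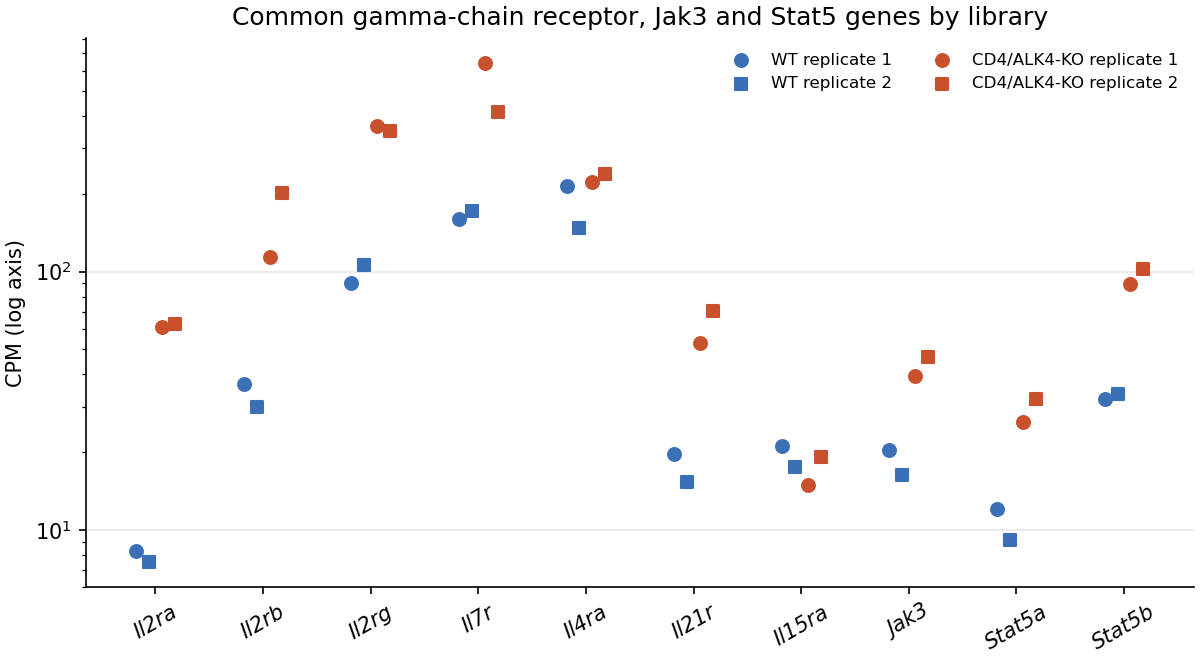
Level of each of the 10 genes in CPM (log axis) in each library, with WT in blue, CD4/ALK4-KO in orange, circles for replicate 1 and squares for replicate 2. The CD4/ALK4-KO points lie above both WT points for 9 genes, by a small margin for *Il4ra*, and the groups overlap for *Il15ra*.

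*Il2ra*, which encodes the IL-2 receptor alpha chain CD25, had the largest fold change of the 10. It lies on chromosome 2 from 11642807 to 11693193 (GRCm38, plus strand). Its level was 8.25 and 7.47 CPM in WT and 61.2 and 62.6 CPM in CD4/ALK4-KO, with 113, 101, 728 and 773 counts behind these values. The replicates lay close to each other and the groups were far apart, at 7.86 ± 0.551 and 61.9 ± 1.02 CPM. The rise was 7.87-fold (95% interval 5.52 to 11.2), a log2 fold change of 2.98 (SE 0.25, adjusted p = 2.5e-08, edgeR). Scaled to the T cell receptor genes, it had the only positive log2 fold change of the 10, at 0.59 with a 95% interval from -0.014 to 1.20, which was not called (adjusted p = 0.059, edgeR). The regulatory T cell markers *Foxp3*, *Ikzf2*, *Ikzf4*, *Ctla4* and *Tnfrsf18*, cells in which CD25 is abundant, were all 5 called higher, with a median log2 fold change of 2.31 and sums of 141 and 119 CPM in WT against 568 and 561 in CD4/ALK4-KO. Counts of *Il2ra* per count of *Foxp3* were 1.69 and 3.61 in WT and 3.62 and 2.23 in CD4/ALK4-KO. This ratio, chosen after the values were seen, overlapped between the groups, and the part of regulatory T cells in the rise of *Il2ra* was not tested.

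*Il2rb*, the beta chain that IL-2 and IL-15 receptors share, lies on chromosome 15 from 78479256 to 78495271 (minus strand). It had 36.8 and 29.9 CPM in WT and 114 and 201 CPM in CD4/ALK4-KO. The groups did not overlap, but the CD4/ALK4-KO replicates were apart, which gave 33.3 ± 4.89 against 158 ± 61.3 CPM. The rise was 4.73-fold (95% interval 3.27 to 6.83), with a log2 fold change of 2.24 (SE 0.26, adjusted p = 9.2e-07, edgeR). Leaving out 1 library at a time moved the log2 fold change between 1.77 and 2.62, the lower end without CD4/ALK4-KO replicate 2 and the upper end without its replicate 1. Its value on the T cell receptor scale was -0.14 with a 95% interval from -0.69 to 0.41 (adjusted p = 0.63, edgeR). NK cells also carry this chain, and the sum of 4 NK cell markers was 27.6 and 44.6 CPM in WT and 133 and 125 CPM in CD4/ALK4-KO. The NK cell sum was thus also higher in both CD4/ALK4-KO libraries, while within each genotype its replicates stood in the opposite order to those of *Il2rb*. The part of NK cells in the rise of *Il2rb* was not tested.

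*Il2rg*, the common gamma chain itself, lies on chromosome X from 101264378 to 101268255 (minus strand). Its level was 90.1 and 106 CPM in WT and 367 and 351 CPM in CD4/ALK4-KO. Replicates were close in both groups, at 98.1 ± 11.2 and 359 ± 10.7 CPM, and the groups did not overlap. The rise was 3.66-fold (95% interval 2.66 to 5.05), a log2 fold change of 1.87 (SE 0.22, adjusted p = 1.4e-06, edgeR), and on the T cell receptor scale it was -0.53 (95% interval -1.11 to 0.042, adjusted p = 0.073, edgeR). Of its exon bases, 728 are shared with the same-strand gene model *Gm20489*, so that some reads of the locus may have been left uncounted.

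*Il7r*, the alpha chain of the IL-7 receptor, lies on chromosome 15 from 9505788 to 9530176 (minus strand). It had 160 and 172 CPM in WT and 645 and 416 CPM in CD4/ALK4-KO. The groups did not overlap, and among the CD4/ALK4-KO libraries replicate 1 was the higher, the opposite order to that of *Il2rb*. Means were 166 ± 8.43 and 531 ± 161 CPM, a 3.20-fold rise (95% interval 2.27 to 4.50) with a log2 fold change of 1.68 (SE 0.24, adjusted p = 1.3e-05, edgeR). It lay between 1.36 and 1.95 when 1 library at a time was left out. *Il7r* was called lower on the T cell receptor scale, at -0.72 (adjusted p = 0.017, edgeR). Of 6 genes that mark naive T cells, cells that also depend on this receptor, 5 were called higher on the TMM scale. Among all genes tested 17.4% were, and the median of the 6 was 2.02. On the T cell receptor scale 0 of the 6 were called higher and 2 lower, with a median of -0.39. There 93.6% of all genes tested were called lower. The sum of *Cd8a* and *Cd8b1* was, like *Il7r*, higher in CD4/ALK4-KO replicate 1 than in replicate 2. In WT the orders were opposite, with sums of 47.8 and 43.6 CPM in replicates 1 and 2. The part of cytotoxic T cells in the values of *Il7r* was not tested.

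*Il7r* was the 1 gene of the 10 with a STAT-type motif in its promoter window. The letters searched were TTCNNNGAA, the core that STAT5 dimers bind, which reads the same on both strands, and the windows were the RefSeq promoters of GRCm38.p6, from 250 bases before to 50 after each start. The motif stood in 8.3% of 32851 such windows. Of the 10 genes 9 matched a window, with 12 windows between them, and *Il2rb* had none. The stretch is printed with the motif in capitals to show the 1 match among the receptor, kinase and STAT5 genes. Its motif, at chr15:9530000-9530028 on the minus strand, starts 142 bases before the RefSeq start that sets the window. That start lies inside the GENCODE span of *Il7r* given above, so the motif does too, and motif distances below are likewise counted from RefSeq starts.
Il7r: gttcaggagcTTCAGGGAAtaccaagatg

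*Il4ra* encodes the private chain of the IL-4 receptor, which many leukocytes and other cells carry, and lies on chromosome 7 from 125552120 to 125579474 (plus strand). Its level was 214 and 147 CPM in WT and 223 and 238 CPM in CD4/ALK4-KO. WT replicate 1 lay close to the CD4/ALK4-KO libraries and WT replicate 2 below them. The means of 181 ± 47.2 and 230 ± 10.8 CPM differed by a log2 fold change of 0.35 (95% interval -0.12 to 0.82), which was not called (adjusted p = 0.25, edgeR). This interval runs from a fold of 0.920 to one of 1.77 and so covers both no change and a rise. Without 1 of the WT libraries it was 0.64 (replicate 1 left out) or 0.097 (replicate 2 left out), and on the T cell receptor scale *Il4ra* was called lower at -2.02 (adjusted p = 7.8e-11, edgeR). An annotated antisense gene, *Gm44876*, covers 571 of its exon bases, and whether counting used strand is not given in the sources used here.

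*Il21r*, the private chain of the IL-21 receptor, follows *Il4ra* on the same strand of chromosome 7, from 125603429 to 125633570. It had 19.7 and 15.3 CPM in WT and 52.9 and 70.5 CPM in CD4/ALK4-KO. The groups did not overlap, and their means were 17.5 ± 3.11 and 61.7 ± 12.4 CPM. The rise was 3.52-fold (95% interval 2.49 to 4.98), a log2 fold change of 1.82 (SE 0.24, adjusted p = 5.8e-06, edgeR), and -0.56 on the T cell receptor scale (adjusted p = 0.058, edgeR). B cells also carry this receptor, and the sum of 7 B cell markers was 65.7 and 54.8 CPM in WT and 195 and 383 CPM in CD4/ALK4-KO, with the higher value in the same library, replicate 2, as for *Il21r*. Whether B cell RNA contributed was not tested. Although *Il4ra* and *Il21r* lie 23954 bp apart with no protein-coding gene between them, counts of *Il4ra* per count of *Il21r* were 10.9 and 9.63 in WT and 4.21 and 3.38 in CD4/ALK4-KO, a pair chosen after the values were seen.

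*Il15ra*, the alpha chain that presents IL-15, lies on chromosome 2 from 11705290 to 11734317 (plus strand), 12.1 kb beyond *Il2ra*. Its level was 21.1 and 17.4 CPM in WT and 14.9 and 19.1 CPM in CD4/ALK4-KO. The groups overlapped, at 19.3 ± 2.58 and 17.0 ± 3.0 CPM. Its log2 fold change of -0.18 (95% interval -0.74 to 0.38) was not called (adjusted p = 0.65, edgeR) and was 0.019 without CD4/ALK4-KO replicate 1. The interval of the fold, 0.599 to 1.30, does not reach the folds measured for *Il2ra* or *Il2rb*. *Il15ra* had the lowest value of the 10 when scaled to T cell receptor genes, at -2.56 (adjusted p = 1.8e-15, edgeR). Counts of *Il15ra* per count of its neighbour *Il2ra* fell from 2.56 and 2.34 in WT to 0.243 and 0.305 in CD4/ALK4-KO, so that the more counted gene of this pair, also chosen after the values were seen, was *Il15ra* in WT and *Il2ra* in CD4/ALK4-KO. Macrophages and other cells also carry *Il4ra* and *Il15ra*. Over the 10 macrophage and monocyte markers the median was -0.28 on the log2 scale. Their sum was the largest of the marker lists in every library, but much of it was 1 gene, *Lyz2*. In WT *Lyz2* made up 4278 and 5687 of 6592 and 7504 CPM, and in CD4/ALK4-KO 4758 and 4227 of 6529 and 6280 CPM. The lists also differ in their number of genes, so these sums do not rank the cell types. The part of macrophages in the values of *Il4ra* and *Il15ra* was not tested.

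*Jak3*, the kinase that binds the common gamma chain, lies on chromosome 8 from 71676296 to 71690575. It had 20.4 and 16.3 CPM in WT and 39.4 and 46.7 CPM in CD4/ALK4-KO. The groups did not overlap, and the means of 18.3 ± 2.84 and 43.0 ± 5.13 CPM gave a 2.34-fold rise (95% interval 1.66 to 3.32) with a log2 fold change of 1.23 (SE 0.24, adjusted p = 0.00049, edgeR). This was the smallest of the 8 rises, and on the T cell receptor scale *Jak3* was called lower at -1.15 (adjusted p = 0.00013, edgeR). *Insl3* shares 404 of its exon bases on the same strand.

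The STAT5 genes lie head to head on chromosome 11, *Stat5b* from 100780731 to 100850724 on the minus strand and *Stat5a* from 100859351 to 100885169 on the plus strand, with 8626 bp between them. *Stat5a* had 12.0 and 9.09 CPM in WT and 26.0 and 32.2 CPM in CD4/ALK4-KO. *Stat5b* had 32.1 and 33.6 CPM in WT and 89.7 and 102 CPM in CD4/ALK4-KO. Neither gene's groups overlapped. *Stat5a* rose 2.75-fold (95% interval 1.86 to 4.08), a log2 fold change of 1.46 (SE 0.27, adjusted p = 0.00030, edgeR), and *Stat5b* rose 2.92-fold (95% interval 2.13 to 4.00), a log2 fold change of 1.55 (SE 0.22, adjusted p = 1.2e-05, edgeR). Within the pair, counts of *Stat5a* per count of *Stat5b* were 0.375 and 0.271 in WT and 0.290 and 0.315 in CD4/ALK4-KO, which overlap. On the T cell receptor scale both were called lower, *Stat5a* at -0.91 (adjusted p = 0.0043, edgeR) and *Stat5b* at -0.85 (adjusted p = 0.0026, edgeR). Their transcripts share 387 distinct stretches of 75 bases, the read length, which is 5.12% of those of *Stat5a* and 6.99% of those of *Stat5b*, so reads of these stretches may have been left uncounted or given to the other gene, and the split between the pair is uncertain to that extent.

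**Figure D2:**
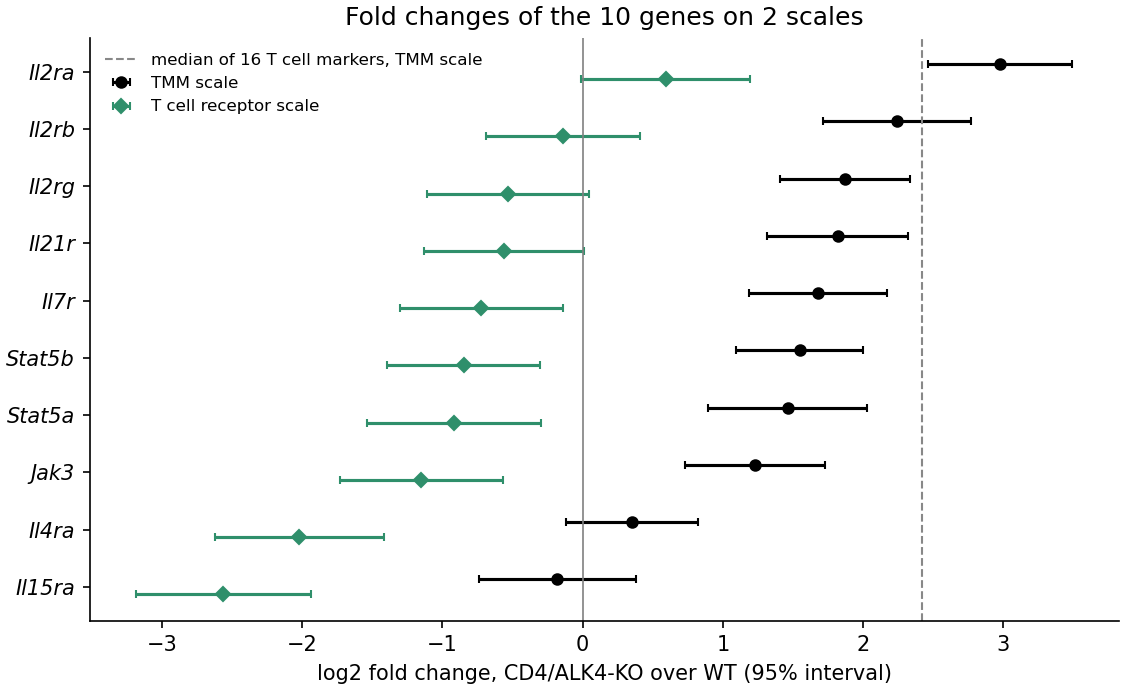
Log2 fold change of CD4/ALK4-KO over WT with its 95% interval for the 10 genes, on the TMM scale (black circles) and on the T cell receptor scale (green diamonds), with the median of 16 T cell markers at 2.42 as a dashed line. *Il2ra* lies at 2.98, above that line on the TMM scale, and the other 9 lie below it, down to *Il15ra* at -0.18.

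Per kilobase of exon, the order of the levels was led by *Il2rg*, *Il7r* and *Il4ra* in both genotypes. In WT they stood at 41.1 ± 4.71, 35.6 ± 1.81 and 30.1 ± 7.86 CPM per kb, and the libraries of *Il7r* and *Il4ra* overlapped. Next came *Il2rb* (7.77 ± 1.14), *Stat5b* (5.93 ± 0.186), *Il21r* (5.27 ± 0.936), *Il15ra* (4.33 ± 0.579) and *Jak3* (3.43 ± 0.531), all in CPM per kb. *Stat5b* and *Il21r* overlapped, as did *Il21r* and *Il15ra*. *Stat5a* (1.48 ± 0.292) and *Il2ra* (1.38 ± 0.0965) came last and overlapped each other. In CD4/ALK4-KO, *Il2rg* and *Il7r* reached 150 ± 4.50 and 114 ± 34.6 CPM per kb, while *Il4ra* at 38.4 ± 1.81 overlapped with *Il2rb* at 36.7 ± 14.3. *Il21r* (18.6 ± 3.73) and *Stat5b* (17.3 ± 1.58) overlapped and were followed by *Il2ra* (10.8 ± 0.179), *Jak3* (8.04 ± 0.958), *Stat5a* (4.08 ± 0.606) and *Il15ra* (3.82 ± 0.675), the last pair overlapping. The genes that changed rank most were *Il2ra*, from rank 10 to rank 7, and *Il15ra*, from rank 7 to rank 10.

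Ratios of the counts of 2 genes within a library do not depend on library size, and they compare the counts of the 2 genes directly. They can still depend on the mix of cells in a library, and the part of that mix in these ratios was not tested. *Il2ra* per *Il2rg* was 0.0915 and 0.0704 in WT and 0.167 and 0.178 in CD4/ALK4-KO, a difference of 1.10 on the log2 scale. *Il2ra* per *Il2rb* also lay higher in CD4/ALK4-KO, at 0.536 and 0.312 against 0.224 and 0.250. The IL-2 alpha chain was thus more counted relative to both of its partner chains in both CD4/ALK4-KO libraries. For *Il2rb*, *Il7r* and *Il21r* per *Il2rg* the groups overlapped, with log2 differences of 0.32, -0.23 and -0.062. *Il4ra* per *Il2rg* fell from 2.37 and 1.39 in WT to 0.607 and 0.677 in CD4/ALK4-KO, so that the more counted of these genes was *Il4ra* in WT and *Il2rg* in CD4/ALK4-KO. *Il15ra* per *Il2rb* fell from 0.573 and 0.584 to 0.130 and 0.0952. *Jak3* per *Il2rg* was lower in CD4/ALK4-KO, at 0.107 and 0.133 against 0.226 and 0.154, and *Il7r* per *Il2ra* fell from 19.4 and 23.0 to 10.5 and 6.65. These are differences in counts, not corrected for exon length, and with 2 libraries against 2 the exact permutation test, two-sided, cannot give a p under 0.33, so no test was made of them.

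**Figure D3:**
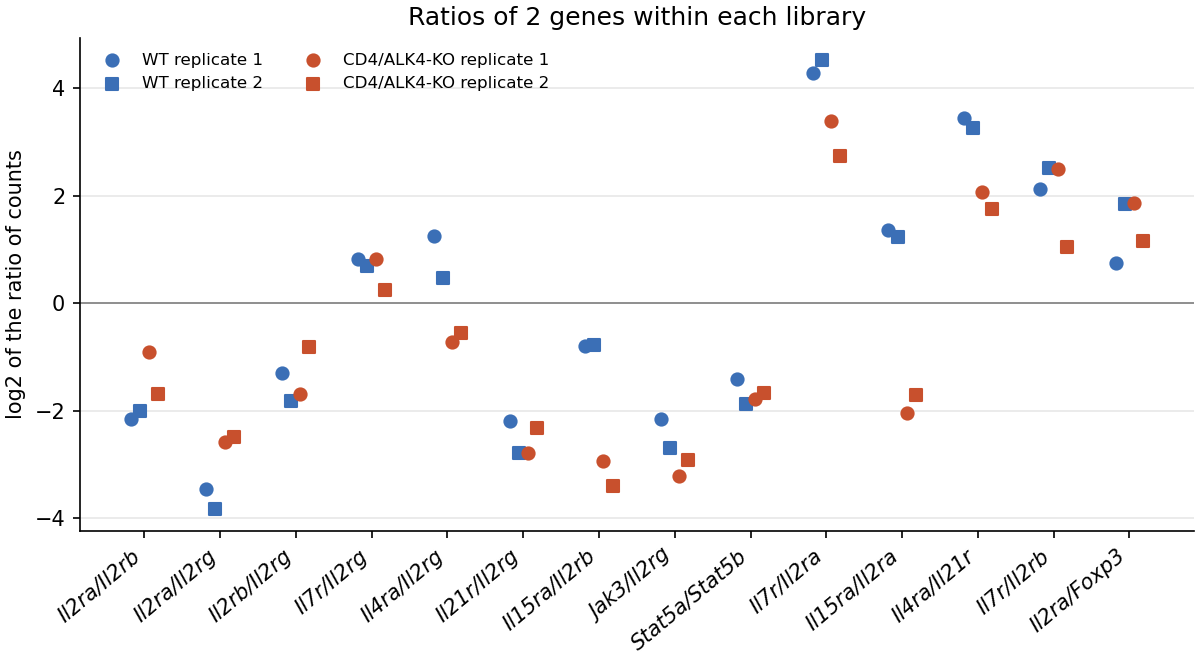
Log2 of the ratio of counts of 2 genes within each library for 14 pairs, with WT in blue, CD4/ALK4-KO in orange, circles for replicate 1 and squares for replicate 2. *Il2ra* per *Il2rb* and per *Il2rg* lie higher in both CD4/ALK4-KO libraries, the pairs led by *Il4ra* and *Il15ra* lie lower, and *Stat5a* per *Stat5b* overlaps.

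Of the 6 ligands of the family, *Il2*, *Il4*, *Il7*, *Il9* and *Il21* had fewer than 100 counts in every library. *Il2* had 14 and 3 counts in WT and 7 and 12 in CD4/ALK4-KO, *Il4* had 6 counts in every library, and *Il9* had 0 in every library. *Il21*, a product of activated helper T cells, was the 1 ligand of 4 tested that was called, with 17 and 5 counts in WT and 44 and 97 in CD4/ALK4-KO (log2 fold change 2.83, SE 0.58, adjusted p = 0.00065, edgeR). *Il7*, made mainly by stromal cells, had 37 and 30 counts in WT and 21 and 20 in CD4/ALK4-KO (log2 fold change -0.54, 95% interval -1.64 to 0.56). Of 4 fibroblast markers 2 were called lower, where 15.4% of all genes tested were, and 1 with DESeq2 size factors. The 4 markers summed to 3805 and 3578 CPM in WT and 2260 and 2203 in CD4/ALK4-KO. The part of fibroblasts in the counts of *Il7* was not tested. *Il15*, made mainly by myeloid and stromal cells, had 124 and 120 counts against 143 and 146 (log2 fold change 0.41, 95% interval -0.20 to 1.02). Of the remaining receptor chains, *Il9r*, the private chain for IL-9, rose from 8 and 16 counts to 52 and 117 (log2 fold change 2.96, SE 0.53, adjusted p = 0.00016, edgeR). The IL-13 receptor chain *Il13ra1*, at 239 ± 29.5 and 236 ± 92.9 CPM, and the thymic stromal lymphopoietin receptor *Crlf2*, at 21.6 ± 2.71 and 29.8 ± 5.14 CPM, were not called, though *Crlf2* passed at 0.63 without CD4/ALK4-KO replicate 2.

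All 3 other Janus kinases were called higher, where 17.4% of all genes tested were. Whether these kinases rose less than *Jak3* was not tested. *Jak1*, which binds the partner chains, rose from 446 ± 100 to 898 ± 93.3 CPM (log2 fold change 1.01), *Jak2*, which serves other cytokine receptors, had a log2 fold change of 1.04, and *Tyk2*, used by interferon and IL-12 receptors, one of 0.59 (adjusted p = 0.045, edgeR). The call of *Tyk2* was lost (0.43 to 0.65) without either WT library, without CD4/ALK4-KO replicate 2, with the replicate number as a block and with upper quartile scaling, and that of *Jak1* without WT replicate 1, where its log2 fold change was 0.79. Of 4 other STAT genes 3 were called higher. *Stat4*, which acts after IL-12, had a log2 fold change of 1.59, *Stat2*, which acts in type I interferon signalling, 1.17, and *Stat3*, which acts after IL-6 and IL-21, 0.93, which was 0.82 and not called without WT replicate 2. *Stat6*, the factor of the IL-4 receptor, was not called, at 145 ± 18.2 and 183 ± 41.9 CPM (log2 fold change 0.34, 95% interval -0.12 to 0.81). As with *Il4ra*, its interval covers both no change and a rise, and without CD4/ALK4-KO replicate 1 it was called higher at 0.59 (adjusted p = 0.0099, edgeR), whereas without CD4/ALK4-KO replicate 2 it was at 0.083 (adjusted p = 0.78, edgeR). These are the ends of its range over the alternatives other than the T cell receptor scale, where it was called lower at -2.04 (adjusted p = 3.8e-11, edgeR).

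Genes that restrain the pathway were divided. Of 7, 4 were called higher and 0 lower, with a median log2 fold change of 0.72, and 2 were called higher without WT replicate 1 and 2 without WT replicate 2. Among all genes tested, 17.4% were called higher and 15.4% lower. *Ptpn6*, the phosphatase SHP-1, rose from 75.7 ± 9.27 to 201 ± 33.4 CPM (log2 fold change 1.41, adjusted p = 4.0e-05, edgeR). *Socs3*, an inhibitor that acts mainly on STAT3 signalling, had 163 and 129 CPM in WT and 143 and 140 in CD4/ALK4-KO, and *Ptpn2*, a phosphatase of JAK and STAT proteins, and *Sh2b3*, an adaptor that dampens JAK2 signalling, also overlapped between the groups. *Cish*, a feedback inhibitor that STAT5 itself induces, was singled out after its values and promoter were seen, and had 8.76 and 7.17 CPM in WT and 24.3 and 26.7 CPM in CD4/ALK4-KO (log2 fold change 1.68, SE 0.28, adjusted p = 7.6e-05, edgeR).

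Of 15 genes that STAT5 is known to induce in lymphocytes, 10 were called higher, 2 lower and 3 were not called, with a median log2 fold change of 1.52. Of these, *Foxp3* is also among the regulatory T cell markers. *Bcl2*, the survival factor downstream of IL-7 and IL-2, had 22.8 and 24.5 CPM in WT and 146 and 132 CPM in CD4/ALK4-KO (log2 fold change 2.55, SE 0.22, adjusted p = 3.3e-08, edgeR). *Ccnd2*, the cyclin D2 gene, rose from 89.4 ± 9.08 to 256 ± 6.72 CPM (log2 fold change 1.52), the granule protease *Gzmb* from 39.0 ± 8.36 to 122 ± 9.90 CPM (1.65), and the kinase *Pim1* from 77.9 ± 5.15 to 127 ± 30.8 CPM (0.71). The call of *Pim1* was lost without either WT library, without CD4/ALK4-KO replicate 2 and with the replicate block, at 0.43 to 0.77. *Mcl1*, another survival factor, was not called, at 394 ± 20.7 and 503 ± 16.6 CPM. *Myc*, a growth regulator that IL-2 induces, moved the other way, from 157 and 125 CPM in WT to 47.2 and 74.8 CPM in CD4/ALK4-KO (log2 fold change -1.21, SE 0.24, adjusted p = 0.00045, edgeR). *Bcl2l1*, a survival gene and the other gene called lower, stood at -0.66 on the log2 scale (adjusted p = 0.027, edgeR), which was not called without WT replicate 1 (-0.43), without WT replicate 2 (-0.87) or with the replicate block (-0.65). Many of these genes answer to other signals and are made by other cells, so that their levels are no readout of STAT5 alone. Over all pathway lists, which leave out the 10 and hold 38 genes, 22 were called higher and 2 lower. Of these genes, *Il4* and *Il9* were too sparse to test. Among all genes tested, 17.4% were called higher and 15.4% lower. On the T cell receptor scale 0 pathway genes were called higher and 29 lower, where 0.18% of all genes were called higher and 93.6% lower.

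**Figure D4:**
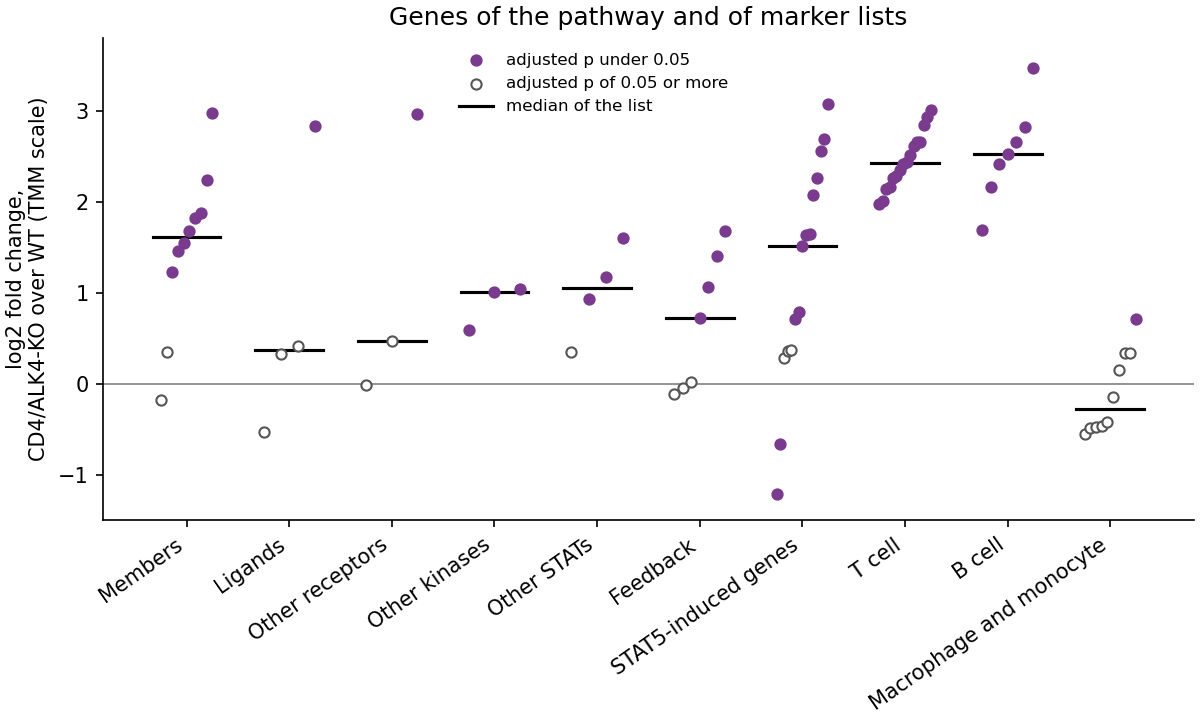
Log2 fold change of each tested gene (TMM scale, CD4/ALK4-KO over WT) in the 10 genes, labelled Members, in 6 lists of the pathway and in 3 marker lists, with filled points at an adjusted p under 0.05 and a line at each median. The median of the 10 genes, 1.61, lies below those of the T cell (2.42) and B cell (2.52) markers and above that of the macrophage and monocyte markers (-0.28).

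Of the 38 pathway genes outside the 10, 31 matched a RefSeq promoter window, and TTCNNNGAA stood in those of 7 genes, in 7 of 38 windows. The stretches around the motif are printed, motif in capitals, because several belong to genes whose levels are given above. The pair in *Cish* lies 2 bases apart on chr9:107296654-107296683, plus strand. The motif starts 154 bases before the start of *Socs3* (chr11:117969502-117969530, minus strand), 139 before that of *Foxp3* (chrX:7580334-7580362, plus strand) and 152 and 16 before that of the lymphotoxin gene *Lta* (chr17:35205485-35205513 and chr17:35205349-35205377, minus strand). It starts 249 bases before the start of *Ifng* (chr10:118440796-118440815, plus strand), 4 before that of *Il4* (chr11:53617324-53617352, minus strand) and 37 after that of *Gzmb* (chr14:56262285-56262307, minus strand).
Cish: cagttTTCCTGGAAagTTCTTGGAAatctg
Socs3: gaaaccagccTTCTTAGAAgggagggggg
Foxp3: gagctctgttTTCCAAGAAcgggcattag
Lta, first: accatcactcTTCAGGGAAccaggcttcc
Lta, second: ccgactccctTTCCCAGAAcgcagtagtc
Ifng: tTTCAGAGAAtcccacaaga
Il4: agttcctgttTTCATGGAAacacaccact
Gzmb: ggcaggagttTTCATAGAAagca

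Of these 7 genes *Cish*, *Lta*, *Foxp3*, *Ifng* and *Gzmb* were called higher, with log2 fold changes of 1.68, 3.07, 2.69, 1.63 and 1.65. *Socs3* was not called, and *Il4* was too sparse to test. Of the 38 pathway genes, with or without the motif, 22 were called higher, where 17.4% of all genes tested were. On the T cell receptor scale 0 of the pathway genes were called higher. Whether the motif has a part in these levels was not tested. A match of letters is a description of the sequence and not a measured binding site.

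The promoters of the 9 genes with a window, all but *Il2rb*, differed in their CpG content. The window of *Il7r* held 1 CpG and those of *Il2ra* and *Il2rg* held 3 each, against a median of 7 over all windows. The window of *Il4ra* held 25, and 81.6% of all windows held fewer. Of the windows of *Stat5b*, 1 held 50 and the other 7, and those of *Stat5a* held 5 and 27. *Il21r*, *Jak3* and *Il15ra* lay between, with 7, 9, and 6 or 15.

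The gene whose levels over the 4 libraries were most like those of each of the 10 was found among 10280 genes whose mean count was 100 or more, by the root mean square distance of log2 CPM centred on each gene's mean. For *Il2rg* this was *Cbl* (0.0219 on the log2 scale), for *Stat5b* *Herc2* (0.0258), for *Il21r* *Notch1* (0.0295), for *Il2rb* *Ptpn7* (0.0419), for *Jak3* *Cacna1d* (0.0432), for *Stat5a* *Tecpr1* (0.0514), for *Il7r* *Nemp2* (0.0706) and for *Il2ra* *Jakmip1* (0.0753). For the genes that were not called these were *Tsc22d4* for *Il4ra* (0.0330) and *Fam104a* for *Il15ra* (0.0129). No gene of the 10 was the nearest of another.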

How the data were processed

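CD4+ T cells from LLC-OVA-bearing lungs were sequenced (TruSeq RNA v2, NextSeq500, single-end reads of 75 bp). The authors aligned reads to mm10 with HISAT2, counted them with htseq-count (intersection-nonempty) and deposited raw counts per gene symbol. The annotation, strand option and tool versions are not given in the sources used here. Groups followed the labels. Replicates differed by more than sampling noise (chi-square per degree of freedom 16.1 and 28.7) and were kept apart.

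Counts were analysed with edgeR 4.0.16 in R 4.3.3: filterByExpr, TMM, a robust quasi-likelihood fit on genotype alone and Benjamini-Hochberg adjustment over 13919 genes. The fitting code was checked on simulated counts. Locations and exon lengths are from GENCODE M21 (GRCm38), and promoters from RefSeq (GRCm38.p6). Named genes were the 10 genes, all ligands, receptors, kinases and STATs listed, the 4 feedback and 6 STAT5-induced genes with the highest mean CPM, *Acvr1b*, *Cd4* and the nearest genes (pseudocount 0.5 CPM). *Cish*, *Bcl2l1*, *Lyz2* and the genes with a promoter motif were added after their values were seen. The values of 1 listed gene are left out here. The genes and lists were chosen with earlier results of these data known.

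Alternatives were DESeq2 1.42.0 size factors and its Wald test, upper quartile scaling, the T cell receptor scale, no filter, a minimum of 10 counts per library, a replicate block, and leaving out each library.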

Additional observations from a re-analysis of the deposited data

How the results depend on the processing

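All 8 calls among the receptor, kinase and STAT5 genes were also made in every alternative fit except the one on the T cell receptor scale. There the genes called higher numbered 25 over all genes, 0 of the 10 and 0 of the pathway genes, and those called lower 13024, 6 and 29. On that scale *Il2ra* was at 0.59 and not called, *Il15ra* was called at -2.56, and these signs turned: *Il2rb* -0.14, *Il2rg* -0.53, *Il7r* -0.72, *Il4ra* -2.02, *Il21r* -0.56, *Jak3* -1.15, *Stat5a* -0.91, *Stat5b* -0.85, *Il2* -1.99, *Il15* -1.98, *Crlf2* -1.92, *Jak1* -1.41, *Jak2* -1.36, *Tyk2* -1.80, *Stat2* -1.23, *Stat3* -1.45, *Stat4* -0.81, *Stat6* -2.04, *Cish* -0.70, *Socs1* -1.64, *Socs2* -1.32, *Ptpn2* -2.38, *Ptpn6* -0.999, *Mcl1* -2.03, *Pim1* -1.68, *Pim2* -0.31, *Ccnd2* -0.89, *Ccnd3* -2.01, *Osm* -1.58, *Gzmb* -0.76, *Prf1* -0.13, *Ifng* -0.77, *Dusp5* -2.10, *Acvr1b* -2.22, *Ptpn7* -0.0904, *Cbl* -0.48, *Nemp2* -0.72, *Tsc22d4* -2.08, *Notch1* -0.58, *Cacna1d* -1.09, *Tecpr1* -0.93 and *Herc2* -0.85. This follows from the shift of -2.39 that the scale gives to all genes.

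Leaving out 1 library at a time gave 1103 to 2923 genes higher and 754 to 2618 lower over all genes, against 2422 and 2140, with the lowest counts without WT replicate 1 and 1344 and 1047 without WT replicate 2. Of the pathway genes 16 to 23 were then higher and 1 to 2 lower. Signs of uncalled genes turned over these fits, which ranged for *Il15ra* from -0.38 to 0.019, *Il2* from -0.39 to 1.77, *Il13ra1* from -0.45 to 0.33, *Socs3* from -0.22 to 0.13, *Ptpn2* from -0.0824 to 0.14, *Sh2b3* from -0.47 to 0.20, *Fam104a* from -0.36 to 0.0473 and *Acvr1b* from -0.0649 to 0.39. The Ptpn2 log2 fold change was -0.0465 with upper quartile scaling. The cause of these changes was not tested.

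Same-numbered libraries share only a number, and their deviations from the group means correlated at -0.214. With the replicate number as a block, 8 of the 10 genes, 19 pathway genes and 1768 genes in all were higher, and 1 pathway gene and 1444 genes in all lower. With the crossed pairing, added after seeing the data, 8, 22 and 3118 were higher, and 2 pathway genes and 3037 genes in all lower. Counts per gene of 3 to 37 limit what can be said of *Il2* and *Il7*.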

Other observations

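The CD4/ALK4-KO replicates differed in opposite directions for 2 receptor chains that both passed the test: *Il7r* had 7673 and 5142 counts in replicates 1 and 2 and *Il2rb* had 1359 and 2480. Counts of *Il7r* per count of *Il2rb* were 5.65 and 2.07 in these libraries and 4.35 and 5.75 in WT, so that the groups overlapped for this pair, which was chosen after the values were seen. In CD4/ALK4-KO replicates 1 and 2 the summed B cell markers were 195 and 383 CPM. Sums in the other order were 310 and 192 CPM for *Cd8a* and *Cd8b1*, and 1364 and 889 CPM for the neutrophil markers. The part of these cells in the differences between the replicates was not tested.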
